A study of Mus musculus with 2 samples.

Results

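The regions described here lay deep between genes: each of 3797 regions on chromosomes 1 to 19 kept a distance of at least 100 kb from the span of every protein-coding gene in the RefSeq table of GRCm38.p6 (mm10). They were chosen by position alone, from 34675 autosomal regions and 35861 regions in all, so that no fold, tag count or score entered the choice. Another 387 regions on chromosomes X and Y met the distance but lay outside the rule. The other 30878 autosomal regions comprised 19534 that overlapped a coding gene and 11344 that lay between genes at less than 100 kb, and these served for comparison.

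The study captured methylated DNA from primary chondrocytes of C57BL/6 mice, a Control genotype and a genotype labelled Uhrf1 cKO, with 1 library each. Cells of both genotypes came from knee cartilage at postnatal day 3 and were exposed, once confluent, to rhBMP-2 at 100 ng/ml for 24 h. DNA sheared to about 300 bp was enriched with the MBD2 protein and sequenced (MBD-seq). Per the file headers, 9782276 of 21831989 Control tags (44.8%) and 15039206 of 19760028 cKO tags (76.1%) were kept after removal of tags at repeated positions. The Cre driver, the floxed allele and the number of mice behind each library were not stated in the labels. The deposited list holds regions where the Control library exceeded the cKO library, with Control tag counts and no cKO counts, so it bears on neither gains of signal in cKO cells nor the identity of the cells. With 1 library per genotype there was no replicate check and no p-value between genotypes. Genotype cannot be told apart from any other difference between the libraries, the unequal share of kept tags included.

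Uhrf1 recognises the hemimethylated DNA left behind by a replication fork and brings the maintenance methyltransferase Dnmt1 to it, so that methylation patterns pass to daughter cells. MBD2 binds methylated CpG, and its capture favours DNA in which several methylated CpG sites lie close together. Gene deserts, the long stretches of mammalian chromosomes without coding genes, are mostly poor in CpG and late to replicate. Some of them hold distant enhancers of developmental regulators, those of the cartilage regulator Sox9 among the best known, as well as long noncoding RNAs (lncRNAs) and miRNA clusters.

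The sequences shown first are those of lncRNA promoters beyond 100 kb from coding genes that held the summit of a deep region (the authors' position of highest signal) with, in the authors' deposited table, a false discovery rate (FDR) of 5% or less. That choice was made after their values were seen. Each sequence is the part of the RefSeq promoter window (250 bases before to 50 after the start) that the region covered, read 5′ to 3′ on the gene's strand in GRCm38.p6 (mm10). Capitals mark CG, the dinucleotide whose methylation MBD2 reads.
Gm31962 at chr10:67399428-67399600, plus strand: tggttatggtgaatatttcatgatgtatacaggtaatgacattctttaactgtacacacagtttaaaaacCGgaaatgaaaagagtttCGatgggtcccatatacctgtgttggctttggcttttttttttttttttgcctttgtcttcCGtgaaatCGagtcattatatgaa
Gm14144 at chr2:151278815-151279114, minus strand: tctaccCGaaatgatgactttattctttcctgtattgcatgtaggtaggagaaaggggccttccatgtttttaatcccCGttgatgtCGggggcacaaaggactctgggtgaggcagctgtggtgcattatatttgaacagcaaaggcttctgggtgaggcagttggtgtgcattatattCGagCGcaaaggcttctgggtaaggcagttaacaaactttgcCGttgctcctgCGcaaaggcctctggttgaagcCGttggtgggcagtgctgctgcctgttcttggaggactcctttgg
4930442J19Rik at chr2:151301789-151302079, plus strand: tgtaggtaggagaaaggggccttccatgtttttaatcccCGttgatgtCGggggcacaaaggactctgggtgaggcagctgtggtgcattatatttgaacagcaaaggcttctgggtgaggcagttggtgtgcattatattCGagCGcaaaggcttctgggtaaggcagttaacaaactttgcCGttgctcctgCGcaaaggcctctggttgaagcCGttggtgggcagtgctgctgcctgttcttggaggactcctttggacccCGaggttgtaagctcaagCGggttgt
Gm52888 at chr6:6390087-6390284, plus strand: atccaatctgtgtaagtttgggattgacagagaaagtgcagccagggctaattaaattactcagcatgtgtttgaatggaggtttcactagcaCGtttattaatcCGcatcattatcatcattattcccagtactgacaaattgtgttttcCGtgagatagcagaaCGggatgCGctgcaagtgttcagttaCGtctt
4933427D06Rik at chr6:89095860-89096159, plus strand: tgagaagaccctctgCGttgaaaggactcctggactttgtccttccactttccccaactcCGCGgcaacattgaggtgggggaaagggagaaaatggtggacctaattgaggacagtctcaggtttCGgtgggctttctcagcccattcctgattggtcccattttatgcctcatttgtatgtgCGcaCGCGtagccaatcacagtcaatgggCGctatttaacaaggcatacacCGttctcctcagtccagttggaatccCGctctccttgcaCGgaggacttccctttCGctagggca
Gm32005 at chr8:96308912-96309130, plus strand: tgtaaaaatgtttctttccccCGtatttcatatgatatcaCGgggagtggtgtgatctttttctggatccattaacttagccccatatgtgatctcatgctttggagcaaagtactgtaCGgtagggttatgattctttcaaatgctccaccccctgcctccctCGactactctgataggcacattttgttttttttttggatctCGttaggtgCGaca
4922502B01Rik at chr8:109249696-109249995, minus strand: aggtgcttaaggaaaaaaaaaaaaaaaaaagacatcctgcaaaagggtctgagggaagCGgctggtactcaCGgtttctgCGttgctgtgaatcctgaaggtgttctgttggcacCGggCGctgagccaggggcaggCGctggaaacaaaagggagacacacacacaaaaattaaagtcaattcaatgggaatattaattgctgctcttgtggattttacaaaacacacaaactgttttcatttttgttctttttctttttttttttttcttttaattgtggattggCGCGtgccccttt
The covered stretches held 4 CG in Gm31962, 8 in Gm14144, 9 in 4930442J19Rik, 6 in Gm52888, 12 in 4933427D06Rik, 6 in Gm32005 and 8 in 4922502B01Rik. CG, which reads the same on both strands, was lacking from 11.5% of the 2014 lncRNA promoter windows beyond 100 kb. It was lacking from 5.25% of all 31396 autosomal promoter windows in the RefSeq set. That wider set includes promoters of coding genes and the deep windows themselves, so the shares do not compare distance alone.

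**Figure D1:**
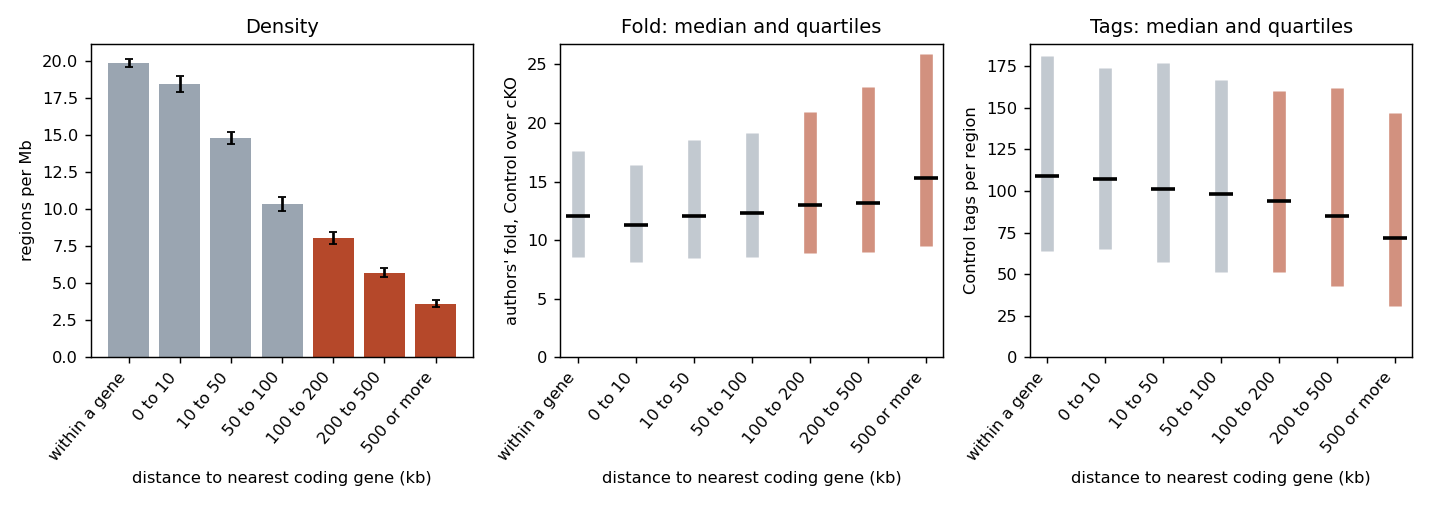
Bars in the left panel give regions per Mb of autosome with 95% exact Poisson intervals, by distance to the nearest protein-coding gene (kb); the other panels give the median (black line) and quartiles (coloured bar) of the authors' fold and of Control tags per region. Red marks deep intergenic regions; density fell from 19.9 per Mb within genes to 3.62 per Mb at 500 kb or more, while the median fold was highest in the farthest band.

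Deep intergenic DNA carried fewer listed regions per Mb than the rest of the autosomes, and those it carried had a higher median fold and a lower median tag count. The territory at least 100 kb from coding genes spanned 657 Mb, or 27.4% of the 2402 Mb of autosome between the outermost features of each chromosome, but it held 10.95% of autosomal regions (95% Wilson interval 10.63 to 11.28). That amounted to 5.78 regions per Mb (95% exact Poisson interval 5.59 to 5.96), against 17.7 per Mb (17.5 to 17.9) elsewhere, a ratio of 0.326 (0.316 to 0.338). Territory counts every base, with assembly gaps and sequence that tags cannot match uniquely left in, so densities per mappable Mb are not known. Deep regions covered 0.254% of their territory and the other regions 0.853% of theirs. These intervals, like those below, cover counting error only, since regions are not replicates of a genotype.

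The decline with distance ran through every band in the plot of density by distance. Density was 19.9 per Mb within genes, 18.4 at up to 10 kb, 14.8 at 10 to 50 kb and 10.3 at 50 to 100 kb. Beyond the limit it continued to 8.06 per Mb at 100 to 200 kb (1601 regions), 5.70 at 200 to 500 kb (1464 regions) and 3.62 at 500 kb or more (732 regions). The intervals of neighbouring bands did not overlap. The median distance of deep regions was 233 kb (quartiles 146 and 419 kb), and 239 lay at least 1 Mb away. At the limit itself, the 5 regions just inside it, at 100.054 to 100.185 kb, had folds between 6.65 and 34.91, and the 5 just outside, at 99.801 to 99.993 kb, between 6.62 and 39.55.

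The authors' fold, Control signal at the summit over the local level expected from the cKO library, had a median of 13.41 in deep regions (95% interval 13.11 to 13.84) and of 11.95 in the others (11.86 to 12.05). Deep regions ranged from 2.15-fold to 113.24-fold, with quartiles of 9.05 and 23.01. A fold of at least 20 was reached by 1148 deep regions (30.2%), where 21.0% of all autosomal regions reached it. Folds of 50 and above were found in 87 deep regions (2.29%, against 1.496% of the others). The median fold in the 3 deep bands was 13.03, 13.15 and 15.33 in order of distance, where the 4 nearer bands lay between 11.3 and 12.3.

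Tag counts ran the other way. A deep region held a median of 86 Control tags and spanned 444 bp, against 106 tags and 481 bp elsewhere, and the median fell from 94 tags at 100 to 200 kb to 72 at 500 kb or more. At an FDR of at most 5%, 2012 deep regions were called (53.0%), near but below the 57.3% of all autosomal regions. The FDR was at its ceiling of 100% in 747 deep regions (19.7%) and in 15.7% of the others. The plot of tags against fold shows how these values are tied: the highest folds at an FDR over 5% belonged to regions with few tags.

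**Figure D2:**
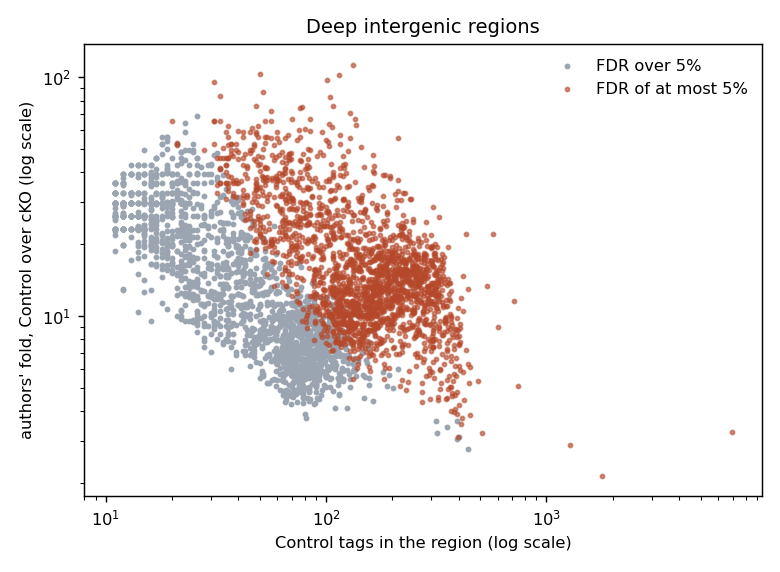
Each point is 1 of the 3797 deep intergenic regions, placed by its Control tags and by the authors' fold, both on log scales; colour gives the authors' FDR. Folds spread widely among regions of few tags, and the region of most tags, 6918, stands at 3.26-fold.

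Depth moved with the fold, so the fold was set out within tag classes. All listed regions passed the authors' limit on p, which a region of few tags can pass only at a high fold. A list with more regions of few tags thus has a higher median fold in part through that limit. Among regions of 11 to 60 tags, the class that held 34.2% of deep regions and 24.1% of the others, the median fold was 22.96 in deep regions and 19.27 in the others. In the class of 61 to 104 tags it was 9.22 and 8.37, and at 105 to 177 tags 11.39 and 10.84. From 178 tags upward the order turned, with 12.8 in deep regions (12.37 to 13.24) and 13.15 in the others (13.03 to 13.28), and the intervals overlapped. With the FDR held to at most 5%, the medians were 14.38 and 13.36. With at least 50 tags, a limit chosen after the data were seen, they were 11.32 and 11.01, and the share at 20-fold or more was 17.4% against 11.9%. The part of tag number in the difference of the whole list was not tested beyond these values.

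**Figure D3:**
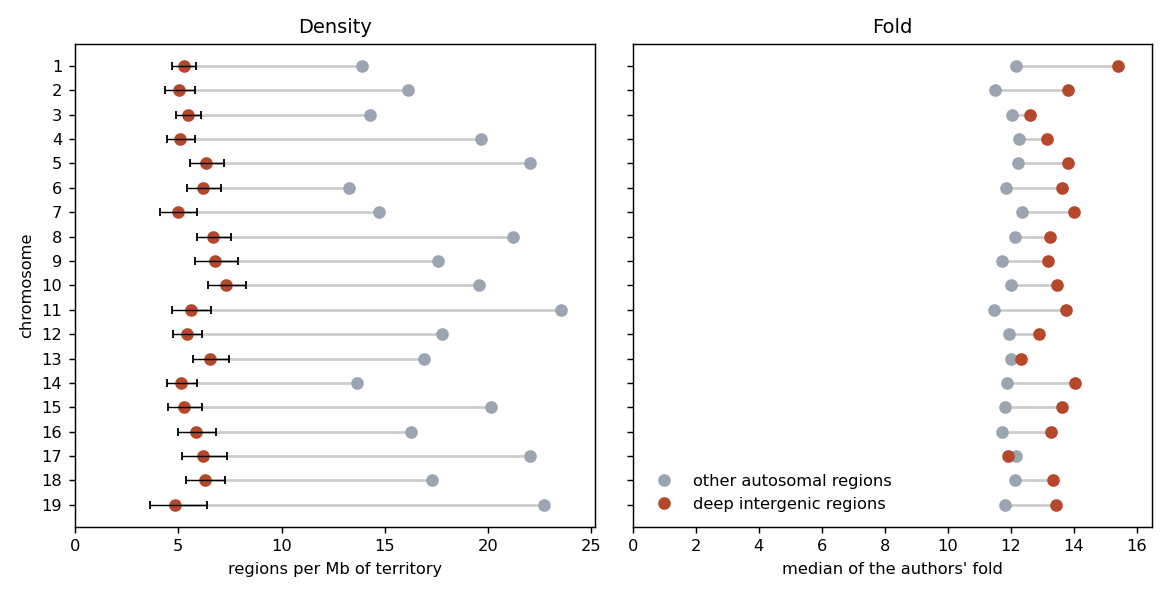
For each autosome the left panel gives regions per Mb, deep (red, with 95% exact Poisson intervals) and other (grey), and the right panel the median of the authors' fold. Deep regions were sparser on all 19 autosomes and had the higher median fold on all but chromosome 17.

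All 19 autosomes had a lower density in deep territory than elsewhere. The ratio ran from 0.214 on chromosome 19, where 51 deep regions lay at 4.86 per Mb, to 0.467 on chromosome 6, where 218 lay at 6.20 per Mb. Deep density ranged from 4.86 per Mb on chromosome 19 (3.62 to 6.39) to 7.32 per Mb on chromosome 10 (6.44 to 8.29), and the density elsewhere from 13.3 per Mb on chromosome 6 to 23.5 per Mb on chromosome 11. The median fold of deep regions was higher than that of the others on 18 chromosomes, most on chromosome 1 (15.42 against 12.17). Chromosome 17 was the exception, at 11.91 against 12.17. Deep regions had the lower median tag count and the larger share at 20-fold or more on all 19.

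The regions fell into 1376 gaps of over 200 kb between neighbouring coding genes, named below by the genes on either side, and into 15 chromosome ends that held 37. At least 1 deep region lay in 945 gaps (68.7%), and the fullest 184 gaps held at least as many as all other gaps together. There were 92 gaps with 10 or more, which together held 1211. Longer gaps were sparser. Gaps of 200 to 500 kb held 9.80 regions per Mb of deep territory, those of 500 to 1000 kb 6.91, those of 1 to 2 Mb 4.97 and those of over 2 Mb 3.75 (3.48 to 4.03). All 73 gaps of over 2 Mb held at least 1.

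Within long gaps density also changed with position, over a narrower range. In the 73 gaps of over 2 Mb, density was 6.30 per Mb within 50 kb of the flanking genes (4.61 to 8.41), 5.62 at 50 to 100 kb, 5 at 100 to 200 kb and 4.45 at 200 to 500 kb. It was 3.18 per Mb at 500 to 1000 kb and 3.63 at 1000 kb or more (3.19 to 4.12). The outermost 50 kb of these long gaps was thus below the 10.3 to 18.4 per Mb of the 3 nearer intergenic bands over all autosomes. Interiors were set beside edges. Of 394 gaps with at least 500 kb of deep territory, the 109 with no region in the outer 100 kb on either side held 3.71 deep regions per Mb (3.42 to 4.03), and the 93 with 3 or more there held 6.46 (5.99 to 6.96). Across the 394 gaps the densities of edge and interior had a Pearson correlation of 0.45 and a Spearman correlation of 0.28, given as a description since the points share both libraries; base composition was not measured.

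**Figure D4:**
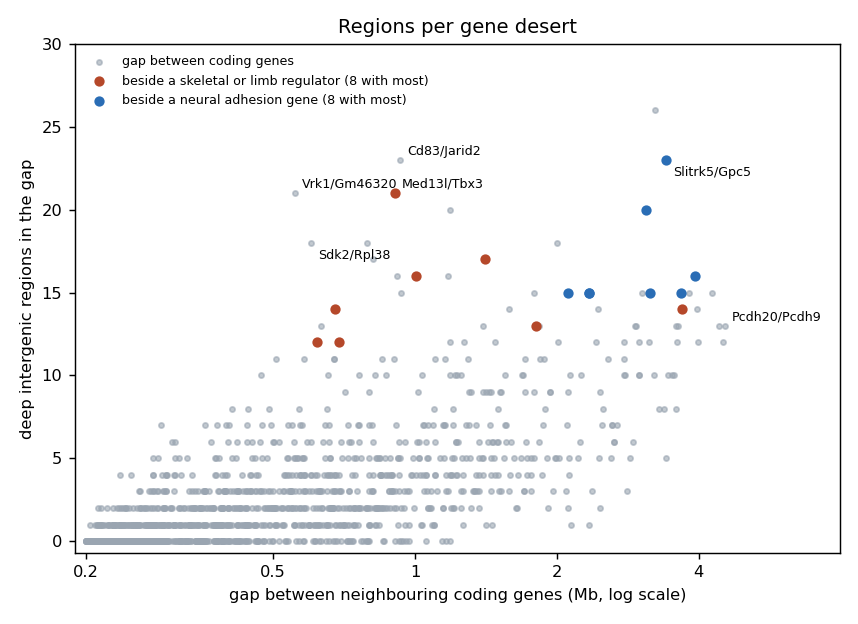
Each point is 1 of 1376 gaps of over 200 kb between neighbouring coding genes, placed by its length (Mb, log scale) and its number of deep intergenic regions. Coloured points mark the 8 gaps with most regions beside a gene of the skeletal list (red) and the neural list (blue); among the labelled gaps, Cd83/Jarid2 and Slitrk5/Gpc5 held 23 each.

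Antigen receptor loci counted as deep because their V, D, J and C segments are not annotated as protein-coding genes. The span of the immunoglobulin kappa locus Igk on chromosome 6 held 26 deep regions. They ran from 6.48-fold to 52.88-fold, with a median of 19.1. Of the 26, 19 had an FDR of at most 5%, as did 53.0% of all deep regions and 57.3% of all autosomal regions. Another 10 lay within that of the T cell receptor alpha locus Tcra (median fold 25.49, range 14.64 to 75.52) and 9 within the immunoglobulin heavy chain locus Igh (median fold 12.29). In all, 48 deep regions lay within 100 kb of a segment, with a median fold of 18.9 and a median of 100.5 tags. None overlapped a segment itself.

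Cd83/Jarid2 on chromosome 13 had 23 deep regions at 31.6 per Mb (20.04 to 47.4), the highest density among gaps with at least 0.5 Mb of deep territory. Jarid2 is a cofactor of Polycomb repressive complex 2. Its regions were of modest fold, with a median of 9.44 and a maximum of 34.49. Slitrk5/Gpc5, between a neural adhesion gene and a glypican gene, also held 23, but spread at 7.17 per Mb over a gap of 3.41 Mb.

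Vrk1/Gm46320 on chromosome 12 packed 21 deep regions into 356 kb of deep territory, or 58.9 per Mb (36.5 to 90.1). It also held the longest run of regions spaced by at most 10 kb: 7 regions over 31.6 kb at chr12:106294703-106326339. Their folds were 9.05, 9.23, 7.36, 37.8, 14.39, 7.58 and 26.37 from left to right, on 102, 197, 107, 196, 205, 43 and 15 tags. The 2 high folds stood among neighbours of under 15-fold, and the last rested on 15 tags at an FDR of 100%.

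Med13l/Tbx3 on chromosome 5 held 21 deep regions at 29.8 per Mb (18.4 to 45.5). Tbx3 encodes a T-box transcription factor of limb and heart development. The folds there ran from 5.08 to 46.14, with a median of 11.75. Further gaps among the 10 with most regions were Pcmtd1/Sntg1 with 20 (median fold 19.42), Ncam2/Mrpl39 with 20 (11.66), Sdk2/Rpl38 with 18 (12.89), Mn1/Cryba4 with 18 (15.8) and Ctnna3/Reep3 with 18 (12.89). Sdk2/Rpl38 lies on chromosome 11 at 44.9 deep regions per Mb. There 6 of its 18 fell within the lncRNA Gm31724, at folds from 6.29 to 16. The 5 densest gaps with at least 0.5 Mb of deep territory were Cd83/Jarid2, Mn1/Cryba4 at 30.5 per Mb, Med13l/Tbx3, Thap1/Zfp703 at 27.7 per Mb (17 regions, median fold 15.35) and Mc2r/Tcf4 at 22.4 per Mb (16 regions, median fold 13.93).

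The longest gaps were sparse. Pcdh20/Pcdh9, between a pair of protocadherin genes, measured 4.54 Mb and held 13 deep regions at 2.99 per Mb (1.59 to 5.12). Celf4/Pik3c3, Olfm4/Pcdh17, Cntnap5b/Cdh20 and Tenm3/Aga held 12, 13, 15 and 12, at 2.78 to 3.68 per Mb. The region farthest from any coding gene, 2156 kb away in Olfm4/Pcdh17, had a fold of 27.05 on 12 tags at an FDR of 100%. Next came a region in Pcdh20/Pcdh9 at 2149 kb, with 7.39-fold on 150 tags at an FDR of 0.07%. The other 3 of the 5 farthest lay in Cntnap5b/Cdh20 at 2137, 2060 and 2050 kb, with folds of 14.63, 9.67 and 9.86 on 132, 62 and 159 tags. The longest gaps with no deep region were Izumo3/Tusc1, Impg1/Htr1b, Jag1/Btbd3, Agbl1/Ntrk3 and Nmur2/Gria1. With 0 regions in the 987 kb of deep territory of the first, the limit of 3 counts allows up to 3.04 per Mb, and the upper bound of the exact Poisson interval is 3.74 per Mb.

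Gaps were grouped by the genes beside them, from 3 lists put together with earlier results of these data known. Gaps beside a skeletal or limb regulator were denser than deserts as a whole: 56 gaps beside 46 of the 64 listed genes held 258 deep regions at 8.39 per Mb (7.40 to 9.48), where all deserts held 5.78. They took 6.79% of deep regions and 4.68% of deep territory. Set against the density of deserts in their own size classes, 258 regions compare with 180 (ratio 1.43, 1.26 to 1.62). Regions came in runs and in a few full gaps, Med13l/Tbx3 alone with 21, so the intervals for all 3 lists are too narrow. The ratios describe the lists and do not test them. Their median fold was 13.52 and that of all deep regions 13.41.

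Examples beside skeletal and limb regulators, in order of count after Med13l/Tbx3, were Sall3/Galr1 with 17, Zfp516/Tshz1 with 16, Zfp64/Tshz2 with 14, Zeb2/Acvr2a with 14, Slc4a3/Epha4 with 13, Etnk1/Sox5 with 12 and Psmd7/Zfhx3 with 12. Sall3, Tshz1, Tshz2, Zeb2 and Zfhx3 encode zinc finger transcription factors, Epha4 an ephrin receptor, and Sox5 a partner of Sox9 in cartilage. Etnk1/Sox5 reached 28.6 per Mb with a median fold of 17.8, and Zfp64/Tshz2 reached 29.4 per Mb with a maximum of 74.22-fold. Zeb2/Acvr2a, at 3.70 Mb a far longer gap, held 4.004 per Mb.

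The deserts beside Sox9, the transcription factor required for cartilage formation, were picked out for the tissue after their values were seen. On the upstream side, Gm11677/Sox9 (1056 kb) held 6 deep regions at 7.01 per Mb (2.57 to 15.3). From the far end inward they had folds of 26.76, 7.46, 7.25, 18.66, 4.58 and 36.92, on 85, 95, 85, 17, 71 and 53 tags. The highest fold belonged to the region nearest Sox9, 108 kb from the gene at chr11:112673350-112673747 within the lncRNA BC006965, with an FDR of 0.2%. The regions of 18.66-fold and 4.58-fold had an FDR of 100%.

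On the far side, Sox9/Slc39a11 (457 kb) held 5 deep regions, at 19.4 per Mb (6.31 to 45.4). Their folds were 8.49, 10.91, 31.7, 12.37 and 15.04 at 115, 139, 209, 224 and 244 kb from Sox9. The one with most tags, 300, lay at chr11:113011919-113012523. An FDR of at most 5% was met by 4 of these 5 and by 2 of the 6 upstream, counts too small to compare. Among all deep regions 53.0% met it, and among all autosomal regions 57.3%. The intervals of the 2 densities overlapped.

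Gaps beside genes of the BMP and TGF-beta pathway, which the BMP-2 treatment engages, stood close to deserts as a whole. The 25 gaps beside 20 of 49 listed genes held 90 deep regions at 6.72 per Mb (5.41 to 8.27), 1.23 times the number for their size classes (0.988 to 1.51). The fullest were Fstl5/Rapgef2, beside a follistatin-like gene, with 15 (median fold 11.81, 6.97 per Mb) and Zeb2/Acvr2a, beside an activin receptor gene, with 14 (median fold 10.91). Tgfbr2/Rbms3, beside a TGF-beta receptor gene, held 7 regions in 197 kb of deep territory, with a median of 178 tags and folds from 7.12 to 17.9. All 7 had an FDR of at most 5%, which 53.0% of all deep regions and 57.3% of all autosomal regions met. Ddhd1/Bmp4, beside a BMP ligand gene, held 6 with a median fold of 8.66, and Gdf6/2610301B20Rik held 6 with a median of 13.06. Rnf144b/Id4 and Id2/Rnf144a, beside targets of BMP signalling, held 9 and 5. Bambi/Lyzl1, beside a decoy receptor gene, held 8 with a median fold of 21.5 on a median of 55.5 tags.

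Gaps beside neural adhesion and synapse genes were the sparse ones. The 120 gaps beside 80 of 95 listed genes made up 24.7% of deep territory and held 644 deep regions, or 17.0%, at 3.97 per Mb (3.67 to 4.29). These gaps were long, with 1352 kb of deep territory on average against 473 kb over all deserts, and against their size classes the ratio was 0.889 (0.822 to 0.961). Their median fold was 14.3 on a median of 73 tags. After Slitrk5/Gpc5 and Ncam2/Mrpl39, the fullest were Lrrc4c/Iftap with 16, then Tmprss15/Ncam2, Ankrd7/Kcnd2, Cntn5/Jrkl, Cdh2/Dsc3 and Pcdh7/G6pd2 with 15 each. Some gaps stand in more than 1 list, and deserts of no list held 6.20 per Mb.

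The largest fold among deep regions with at least 50 tags and an FDR of at most 5% was 113.24, at chr3:123876650-123877183 on 132 tags, 185 kb from Ndst3, a heparan sulfate sulfotransferase gene. The next were 102.98 at chr13:68361532-68361741 near Mtrr (50 tags) and 102.51 at chr12:68304280-68304734 in Mdga2/Rps29, 853 kb from a coding gene (115 tags). A region at chr15:62632265-62632711, 642 kb from the oncogene Myc, reached 97.16-fold on 101 tags. The remaining 6 of the 10 had 86.86 (in the lncRNA 4930442J19Rik), 82.4 (in the pseudogene Gm31104), 76.23 (Tusc1/Caap1), 75.52 (in Tcra), 74.22 (Zfp64/Tshz2) and 72.51 (Nbea/Tm4sf1). All 10 held between 50 and 132 tags. The highest fold among the other autosomal regions was 161.5.

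The 4 deep regions with the most tags had low folds, whereas all deep regions of 178 tags or more had a median of 12.8. The extreme was a 4049 bp region at chr14:19415688-19419736, with 6918 tags and 3.26-fold. Another 4 regions stood together at chr2:98662197-98667359 in Lrrc4c/Iftap, 1031 kb and more from a coding gene, with 259 to 1787 tags and folds of 2.15 to 6.98. The next by tags, at chr13:3337342-3338682, had 712 tags and 11.54-fold. Just 3 deep regions exceeded 1000 tags, and without them the median fold was again 13.41.

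Deep regions had farther listed neighbours than the other autosomal regions, in territory of lower density. The spacing that density alone would give was not computed. The nearest listed region of any class was a median of 38.6 kb away, against 11.1 kb for the others. A neighbour within 10 kb was found for 24.6% (23.3 to 26.0) and 47.2%, and 25.3% of deep regions had none within 100 kb, against 4.97%. Runs spaced by at most 10 kb numbered 415 and held 921 deep regions, which left 2876 single. After the run in Vrk1/Gm46320, the next held 5 each, in Foxp2/Mdfic (5.63-fold to 23.79-fold within 7.23 kb), Spaca1/Akirin2, Zfp64/Tshz2 and Ccdc54/Cblb. All 5 regions of the Foxp2/Mdfic run had an FDR of at most 5%, which 53.0% of all deep regions and 57.3% of all autosomal regions met.

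Noncoding annotation covered a minority of deep regions. A noncoding or pseudogene model was overlapped by 688 (18.1%, 16.9 to 19.4), at 8.21 per Mb of such models against 5.42 per Mb outside them, a ratio of 1.51 (1.39 to 1.65). These models include the whole spans of the antigen receptor loci Igk, Tcra and Igh, with 26, 10 and 9 regions. For lncRNA models, with 511 regions, the ratio was 1.29 (1.17 to 1.42). For pseudogenes it was 3.59 (2.98 to 4.29), with 126 regions at 20.2 per Mb. Regions that reached past the end of a model were counted too, while these densities divide by the bases of the models alone. The ratios are therefore raised, most where models are short, by an amount that was not computed. Tags of 55 bases can match both a pseudogene and its parent gene or another copy, and no source used here gives how such reads were treated, so the count over pseudogenes is uncertain. Regions in any such model had a median fold of 13.11 on 94 tags, and those outside 13.59 on 85 tags. Besides the antigen receptor loci and Gm31724, 5 regions each lay in 4 lncRNAs: Lncpint, a lncRNA induced by p53 (folds 7.8 to 13.67), Gm31615, 2610307P16Rik and Gm32647. Within Pvt1, the lncRNA beside Myc, there were 4, singled out after the values were seen, at 9.13-fold to 13.25-fold.

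Some lncRNA promoters were touched by deep regions. A deep region touched 24 of the 2014 lncRNA promoter windows beyond 100 kb (1.19%, 0.802 to 1.77), belonging to 22 genes. For lncRNA windows nearer to coding genes, regions touched 190 of 9297 (2.04%, 1.78 to 2.35). The 2 shares have unlike backgrounds, since deep territory held 5.78 regions per Mb and the rest of the autosomes 17.7. The share for windows placed without regard to promoters was not computed, so neither excess nor lack at lncRNA promoters can be read from these values. Windows with a deep region were richer in CG, with a median of 7 sites against 3 in those without. None of 232 windows lacking CG was touched (upper bound 1.63%), 0.550% of those with 1 to 2, 0.375% of those with 3 to 4, 3.45% of those with 5 to 9 and 3.48% of those with 10 or more. CG content is also what MBD2 capture needs, so it bears on which windows could be listed at all.

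**Figure D5:**
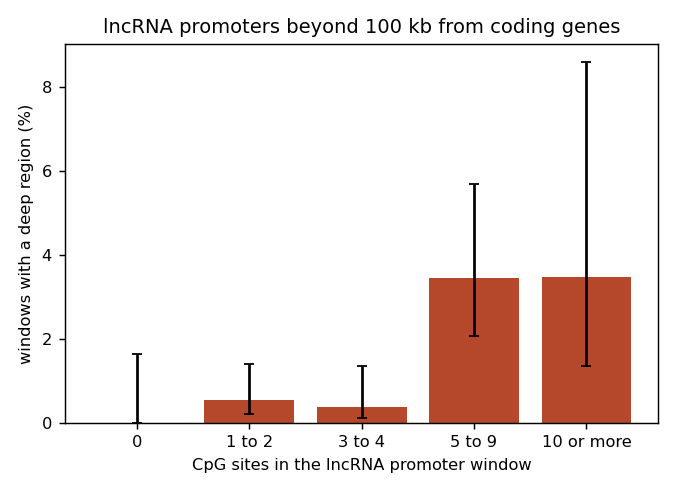
Bars give the percent of lncRNA promoter windows beyond 100 kb from coding genes that a deep region touched, by the number of CpG sites in the window, with 95% Wilson intervals. Windows of 5 to 9 sites and of 10 or more stood at 3.45% and 3.48%, those with none at 0.

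The 7 promoters printed above differed widely in fold. 4933427D06Rik had the most tags, 333, at 14.18-fold in a region covering its whole window, which has 12 CG. 4922502B01Rik followed with 220 tags and 17.08-fold, Gm31962 with 171 and 9.12-fold, Gm32005 with 165 and 17.39-fold, and Gm52888 with 111 and 14.96-fold. 4930442J19Rik (52 tags) and Gm14144 (40 tags) had far higher folds, 86.86 and 59.76. Their printed sequences align over 261 bases without a difference, and all of the 24-base words of the Gm14144 sequence recur in other promoter windows, those of 4930442J19Rik, Gm30478 and LOC100125594. Tags of 55 bases within the shared stretch cannot be told apart between the copies, so these 2 folds do not stand for separate loci. The same caution holds for 4930442J19Rik among the largest folds above.

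The Rtl1/Dio3 gap on chromosome 12, which holds miRNAs of the imprinted Dlk1-Dio3 domain, had 11 deep regions at 23.2 per Mb. The miRNAs of this domain are expressed from the maternal chromosome, whose copy of the domain differs in methylation from the paternal one. Of 101 miRNA hairpins beyond 100 kb from coding genes, 24 lay within 5 kb of a deep region. Of those, 16 belonged to this cluster, in which 37 hairpins span 38.9 kb. These 16 crowd around the same few regions, so they are not separate cases. The share of all deep territory within 5 kb of a deep region was not computed. Just 1 hairpin of the 101 was overlapped, Mir539. Mature sequences of cluster hairpins within 1.2 kb of a region follow, from the RefSeq set (GRCm38.p6, mm10, plus strand). That choice was made after their positions were seen, and Mir487b and Mir539 are shown by their 5p sequence alone. Capitals mark the seed (bases 2 to 8).
mmu-miR-543-5p at chr12:109717269-109717289: aAGUUGCCcgcguguuuuucg
mmu-miR-543-3p at chr12:109717304-109717325: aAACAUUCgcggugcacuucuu
mmu-miR-495-5p at chr12:109718757-109718779: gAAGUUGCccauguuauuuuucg
mmu-miR-495-3p at chr12:109718795-109718816: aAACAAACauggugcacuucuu
mmu-miR-381-5p at chr12:109726829-109726851: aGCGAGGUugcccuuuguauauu
mmu-miR-381-3p at chr12:109726870-109726891: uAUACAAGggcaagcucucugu
mmu-miR-487b-5p at chr12:109727347-109727367: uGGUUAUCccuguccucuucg
mmu-miR-539-5p at chr12:109728136-109728157: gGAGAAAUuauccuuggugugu
No 2 of these 8 share a seed. The 3p sequences of Mir487b and Mir539 are not among them and were not compared.

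The region over Mir539 ran at chr12:109728031-109728483, with 135 tags and 19.1-fold, and covered all 74 bases of the hairpin, which hold 0 CG. The other, at chr12:109717869-109718403, had 150 tags and 18.35-fold and lay 536 bp from Mir543 and 351 bp from Mir495. Both had an FDR listed as 0. Each of the 2 regions thus stood above the median fold of 13.41 and the median of 86 tags of deep regions. Outside the cluster, 8 hairpins lay within 5 kb of a deep region, among them Mir99a at 3632 bp and Mirlet7c-1 at 4353 bp, which neighbour each other on chromosome 16.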

How the data were processed

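MBD-seq was analysed from 1 deposited list of regions for 2 libraries, Control and Uhrf1 cKO. Per the file headers, the authors called regions with MACS at a p limit of 1.00e-10, with the Control library as treatment and the cKO library as control, keeping at most 1 tag per position, with 55 bp tags, a modelled d of 58 bp and local backgrounds of 1000 and 10000 bp. Version 1.4.2 of MACS and the build mm10 come from the submitters' processing notes. Neither the aligner nor the handling of multiply matching reads is given in the sources used here. The deposited tag count of a region is the whole number of its Control tags, unscaled. The deposited score is the authors' p on a negative log10 scale, multiplied by 10. The deposited fold is the authors' ratio of Control over cKO signal at the summit. The deposited FDR is a percent and compares with calls made with the libraries swapped. Fold, score and FDR served to describe, rank and filter regions within the list, and no fold could be recomputed.

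Distances were measured from each region to the spans of 20556 protein-coding genes on 19 autosomes (RefSeq, GRCm38.p6). The table places 328 autosomal models (105 coding) below 3 Mb, where mm10 autosomes have no known sequence and no region starts; these models were left out. Territory runs between the first and last gene model or region of each chromosome. Promoter windows (300 bases) and miRNAs came from RefSeq sequences of the same build, matched by symbol; no genome was used, so region sequence, CpG density and repeats were not analysed here. Intervals (95%) are Wilson for shares, exact Poisson for densities, conditional binomial for ratios and order statistics for medians, and cover counting error only. The members and gene lists were chosen with earlier results of these data known. Named were the 10 regions of largest fold (at least 50 tags, FDR at most 5%), the 5 of most tags, the 5 farthest, those nearest the limit, the 10 fullest, 5 densest, 5 longest and 5 longest empty gaps, up to 8 gaps per list, the noncoding models with most regions and the 5 longest runs; the Sox9 gaps, the promoters and the miRNAs were added after values were seen. One gap that the rule names is not reported here. Steps were tested on simulated data. Alternatives changed the distance limit, the gene set, the reference point and the limits on p, FDR and tags. Tools were pandas 2.3.3, NumPy 2.4.6, SciPy 1.17.1 and Matplotlib 3.10.9 under Python 3.11.15.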

Additional observations from a re-analysis of the deposited data

How the results depend on the processing

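No paired analysis was possible because each genotype has 1 library and no comparison of groups was tested. Deep territory held fewer regions per Mb than the rest under every alternative computed. Against 3797 regions, 10.95% of autosomal regions, a density ratio of 0.326 and a median fold of 13.41, a limit of 50 kb gave 16.4%, 0.365 and 13.05, and a limit of 200 kb gave 2196 regions, 6.33%, 0.286 and 13.87. Distance to every gene model, lncRNAs and pseudogenes included, left 687 regions, 1.98%, 0.248 and 14.55. Coding genes without Gm and Rik models gave 11.8%. A p of at most 1e-20 gave 2514 regions, 10.2%, 0.302 and 13.90 (others 12.8), and an FDR of at most 5% gave 2012, 10.1%, 0.299 and 14.38 (others 13.36). At least 50 tags, added after the data were seen, gave 9.76%, 0.287 and 11.32 (others 11.01). Measuring from the summit, counting immune receptor segments as coding genes and dropping regions of over 1000 tags, the last 2 also added later, moved none of these values by more than its interval. Of the tag classes, the one with the fewest tags had the highest median fold, and 34.2% of deep regions held at most 60 tags. How depth bears on the fold there was not tested. The limit of 50 tags removed deep regions of few tags, and those of 11 to 60 tags had a median fold of 22.96. What caused the shifts under the alternatives was not tested.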
